A study of Mus musculus with 6 samples.

Results

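The tumour suppressor p53, encoded by *Trp53*, and 9 genes that it is known to control were followed in pancreatic islets of mice with and without *Parn* in β cells. The 10 genes were taken by name from the 55060 genes of the deposited expression table, with earlier results of these data known. They were *Trp53*, *Mdm2*, *Cdkn1a*, *Ccng1*, *Bax*, *Bbc3*, *Phlda3*, *Eda2r*, *Trp53inp1* and *Zmat3*. Each name matched 1 row, and all 10 passed the filter on low values, a mean FPKM of at least 0.1, together with 21211 genes in all. The cKO mice carried an Ins2-cre transgene on a Parn f/f background, so that exon 7 of *Parn*, the gene of a poly(A)-specific exoribonuclease, is lost where the *Ins2* promoter is active. The Ctrl mice were Parn f/f mice and other littermates. Both groups were 12 weeks old and on a C57BL/6 background. Whether a Ctrl sample carried the Cre transgene is not given in the labels. Each group had 3 samples of whole islets, and the other islet cells, which keep *Parn*, are part of every sample.

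The p53 protein is a transcription factor that is held at a low level by the ubiquitin ligase MDM2 and is mostly controlled at the level of the protein. When it is stabilised, by DNA damage, nucleolar stress or other insults, it binds a consensus of paired half-sites near its target genes and raises their transcription. The targets stop the cell cycle, feed back on p53, open the mitochondrial pathway of apoptosis or dampen growth signals. *Mdm2* is itself a target, which closes a negative feedback loop. For this reason the mRNA of the targets, and not that of *Trp53*, is the usual readout of p53 activity in expression data. PARN shortens poly(A) tails and trims the ends of several small non-coding RNAs.

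Promoter windows from RefSeq on GRCm38.p6, from 250 bases before to 50 bases after a transcription start, were matched to 8 of the 10 genes, all but *Trp53inp1* and *Zmat3*, in 11 windows. They were searched for the p53 consensus site, named here by its name only, which consists of 2 half-sites of 10 bases, either adjacent or with 1 base between them. The consensus reads the same on both strands, so that 1 search covers both. A site with at most 1 mismatch was found in 3 of the 11 windows, those of *Cdkn1a*, *Ccng1* and *Bax*, and in 58 of 32851 windows of all genes (0.177%). The best match of the other 8 windows, which include the second window of *Cdkn1a* and those of *Phlda3*, *Eda2r*, *Mdm2*, *Bbc3* and *Trp53*, had 3 or more mismatches. Up to 3 mismatches occurred in 11.7% of all windows. A match describes these letters only, and the windows are short.

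The 3 windows with a near match are shown. They belong to genes that were higher in cKO islets, described below. *Phlda3*, *Eda2r* and *Mdm2*, whose windows held no near match, were also higher. Each reads 5′ to 3′ along the gene, and capitals mark the 2 half-sites. The window of *Cdkn1a* is chr17:29090729-29091028 on the plus strand, and its site, at 29090928 to 29090947, has 1 mismatch, adjacent half-sites and lies 28 bases before the annotated gene. The window of *Ccng1* is chr11:40755237-40755536 on the minus strand. Its site, at 40755462 to 40755481, has 1 mismatch and adjacent half-sites and lies 150 bases before the gene. The window of *Bax* is chr7:45466849-45467148 on the minus strand. Its site, at 45467090 to 45467110, has 1 mismatch, 1 base between the half-sites and lies 191 bases before the gene, in an intron of the overlapping gene *Gm45808*. No annotated gene of GENCODE M21 covers the sites of *Cdkn1a* and *Ccng1*.
Cdkn1a: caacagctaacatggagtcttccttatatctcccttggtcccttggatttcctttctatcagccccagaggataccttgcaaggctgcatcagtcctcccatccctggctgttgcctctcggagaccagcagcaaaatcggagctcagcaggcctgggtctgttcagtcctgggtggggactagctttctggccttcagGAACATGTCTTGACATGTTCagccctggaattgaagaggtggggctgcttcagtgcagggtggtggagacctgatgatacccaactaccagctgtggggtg
Ccng1: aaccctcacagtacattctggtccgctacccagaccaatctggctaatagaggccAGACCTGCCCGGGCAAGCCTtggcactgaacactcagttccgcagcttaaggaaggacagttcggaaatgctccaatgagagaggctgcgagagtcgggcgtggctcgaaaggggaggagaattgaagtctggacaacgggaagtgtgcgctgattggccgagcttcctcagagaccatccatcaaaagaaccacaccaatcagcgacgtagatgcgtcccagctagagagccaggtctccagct
Bax: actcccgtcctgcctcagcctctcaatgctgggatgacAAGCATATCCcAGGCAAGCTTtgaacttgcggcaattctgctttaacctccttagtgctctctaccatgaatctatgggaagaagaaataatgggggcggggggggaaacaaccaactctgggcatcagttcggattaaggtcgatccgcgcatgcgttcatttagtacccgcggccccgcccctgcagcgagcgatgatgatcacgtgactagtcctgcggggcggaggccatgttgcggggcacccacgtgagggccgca

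Before the genes themselves, the samples were compared. FPKM counts fragments on a gene relative to its length and to the size of the library, and the reads on genes summed to between 16289408 and 17944775 per sample. *Parn* (chromosome 16, 13537960 to 13668170) had an FPKM of 6.64, 8.34 and 7.38 in Ctrl, against 4.97, 4.61 and 6.15 in cKO, so that every cKO sample was below every Ctrl sample. The log2 difference was -0.44 (standard error 0.131, adjusted p = 0.545, limma). Ctrl replicate 1 stood apart from the other samples. On the first principal component it lay at -52.4, against -2.91 to 26.6 for the others, and the summed FPKM of 7 leukocyte markers was 725 in it against 87.1 to 166 elsewhere. The Y-linked genes *Ddx3y*, *Eif2s3y*, *Kdm5d* and *Uty* and the X-linked *Xist* were both present in Ctrl replicates 1 and 2 and cKO replicate 1, the Y-linked genes were listed at 0 in Ctrl replicate 3 and cKO replicate 2, and *Xist* was at 0.139 in cKO replicate 3. The sexes therefore did not separate the genotypes. Ctrl replicates 1 and 2 and cKO replicate 1 held RNA of both sexes, and so of more than 1 mouse. The number of mice behind a sample is not given in the labels, and nothing says that the samples are separate animals. The p-values therefore measure the spread between these samples only.

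Across the 10 genes, the mean FPKM was higher in cKO than in Ctrl islets for 10 of 10. The median log2 difference was 0.52, against -0.01 over the 21211 genes tested. In 7 of the 10, *Mdm2*, *Cdkn1a*, *Ccng1*, *Bax*, *Phlda3*, *Eda2r* and *Zmat3*, every cKO sample was above every Ctrl sample, which was the case for 7.11% of all genes. The reverse, every cKO sample below every Ctrl sample, was seen for 0 of the 10 and for 6.03% of all genes. The same 7 genes had an unadjusted p under 0.05 in limma's moderated test on log2(FPKM + 1), where 4.33% of all genes were higher and 3.07% lower at that level. With Benjamini-Hochberg adjustment over all genes, 0 of the 10 and 0 of the 21211 genes (0.0%) had an adjusted p under 0.05. The differences of the 10 genes were thus not established one by one against the number of genes tested, and each is given below with its samples.

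**Figure D1:**
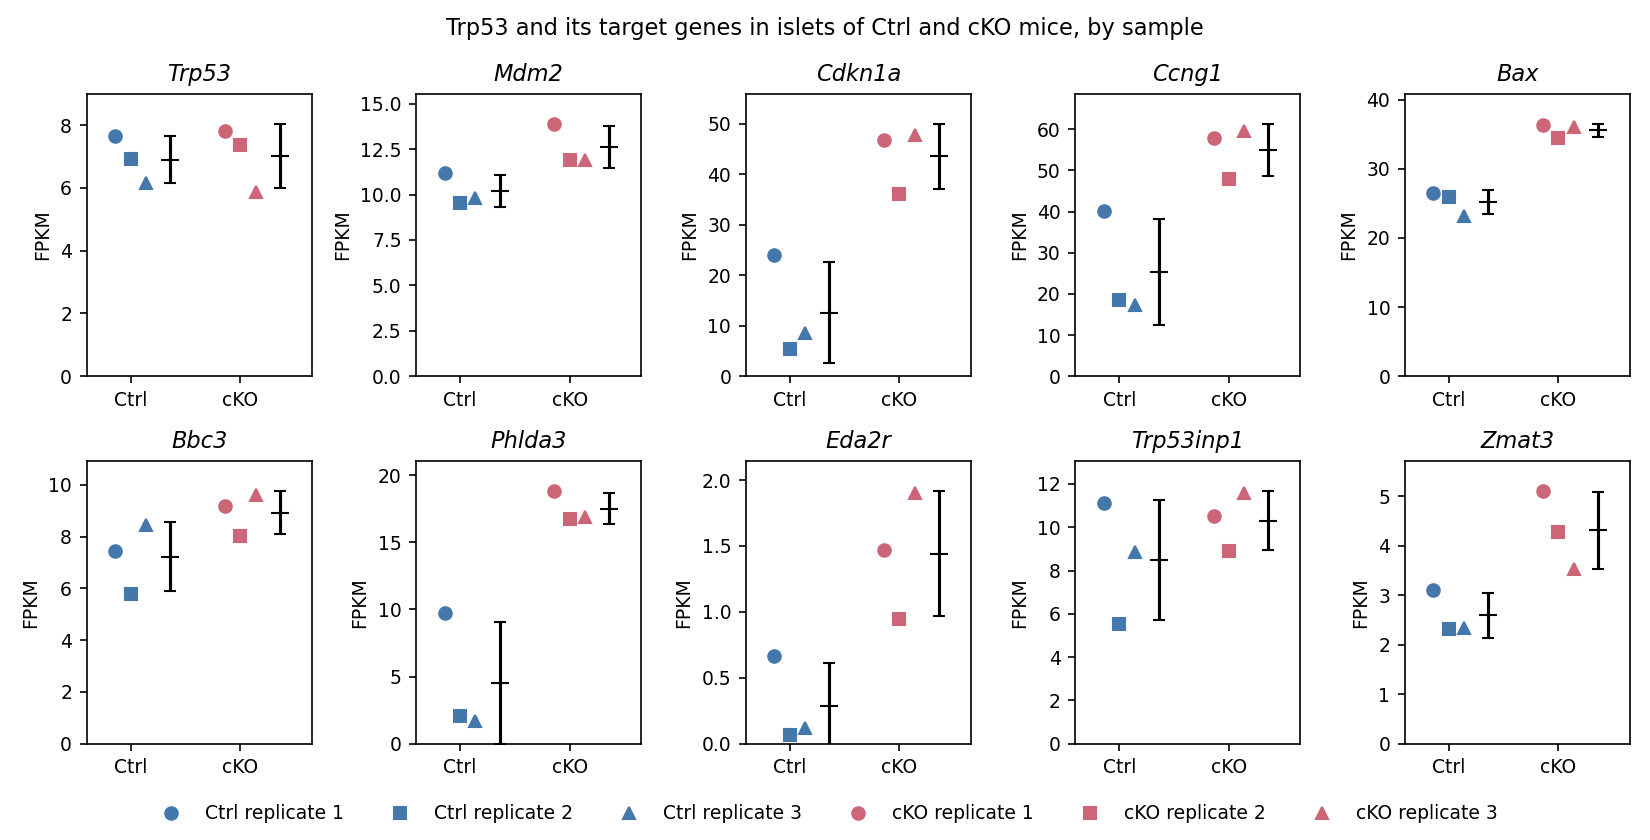
FPKM (vertical axes, each from 0) of *Trp53* and 9 target genes in each Ctrl and cKO sample; symbols mark the replicate number, which does not pair samples, and black bars give the mean ± SD of 3 samples, drawn down to 0 where the SD exceeds the mean. Every cKO sample lies above every Ctrl sample for 7 genes, and *Trp53* overlaps between the groups. For the same 7 genes Ctrl replicate 1 sits between the other Ctrl samples and the cKO samples, for *Bax* at 26.5 against 25.9 in Ctrl replicate 2.

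*Trp53* itself (ENSMUSG00000059552, chromosome 11, 69580359 to 69591873) had similar levels in both groups. Its FPKM was 7.64, 6.93 and 6.14 in Ctrl and 7.82, 7.35 and 5.88 in cKO. The highest and the lowest value were both from cKO samples, and the groups overlapped. The means were 6.90 ± 0.75 (SD, n = 3) and 7.02 ± 1.02 (SD, n = 3), and the log2 difference was 0.02 with a 95% interval from -0.30 to 0.33 (adjusted p = 0.987, limma). Its sign turned in 4 of 18 alternative fits, among them those without Ctrl replicate 3 (-0.05), cKO replicate 1 (-0.06) or cKO replicate 2 (-0.02). *Wrap53*, the neighbour transcribed from the opposite strand, was at 5.17, 5.76 and 5.16 in Ctrl and 5.38, 5.27 and 4.26 in cKO, and the pseudogene *Trp53-ps* stayed below 0.62 in every sample. These last genes were looked up after their values were seen.

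*Mdm2* (ENSMUSG00000020184, chromosome 10, 117688875 to 117710758) encodes the ligase that marks p53 for degradation and is the feedback arm of the pathway. Its FPKM was 11.2, 9.55 and 9.82 in Ctrl and 13.9, 11.9 and 11.9 in cKO. The groups did not overlap, but the lowest cKO sample exceeded the highest Ctrl sample by a factor of only 1.06. The means were 10.2 ± 0.876 and 12.6 ± 1.16 (SD, n = 3 each), a ratio of 1.24 and a log2 difference of 0.28 (standard error 0.102, unadjusted p = 0.0310, adjusted p = 0.622, limma). The unadjusted p was 0.0952 without Ctrl replicate 2, 0.0744 without Ctrl replicate 3 and 0.10 without cKO replicate 1. It was 0.0548 when samples were scaled without their 10 highest genes.

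Among the genes of the cell cycle, *Cdkn1a* (ENSMUSG00000023067, chromosome 17, 29090976 to 29100727) encodes p21, the inhibitor of cyclin-dependent kinases through which p53 arrests cells before S phase. Its FPKM was 23.9, 5.40 and 8.61 in Ctrl and 46.7, 36.1 and 47.7 in cKO. Every cKO sample was above every Ctrl sample, the lowest by a factor of 1.51 over Ctrl replicate 1, and Ctrl replicate 1 was well above the other two Ctrl samples. The means were 12.6 ± 9.90 and 43.5 ± 6.45 (SD, n = 3 each), a ratio of 3.44. The log2 difference was 1.94 (standard error 0.472, unadjusted p = 0.00533, adjusted p = 0.454, limma), which placed *Cdkn1a* at rank 22 of all genes by the size of the rise. The values rested on 302 to 1483 reads in Ctrl and 2228 to 3067 in cKO, so that counting error was small beside the spread between samples. A gene of unknown function on the opposite strand, *AC167363.2*, shares 7.68% of the exonic bases of *Cdkn1a*.

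*Ccng1* (ENSMUSG00000020326, chromosome 11, 40748552 to 40755311) encodes cyclin G1, a p53 target that recruits a phosphatase to MDM2. Its FPKM was 40.1, 18.4 and 17.3 in Ctrl and 57.8, 47.8 and 59.5 in cKO, again without overlap and with Ctrl replicate 1 between the other Ctrl samples and the cKO samples. The means were 25.3 ± 12.8 and 55.0 ± 6.33 (SD, n = 3 each), a ratio of 2.18. The log2 difference was 1.19 (standard error 0.311, unadjusted p = 0.00753, adjusted p = 0.481, limma). It was the most abundant of the 10 genes per length in cKO islets.

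The apoptotic arm was represented by *Bax* and *Bbc3*. *Bax* (ENSMUSG00000003873, chromosome 7, 45461697 to 45466898), whose protein permeabilises the outer mitochondrial membrane, had an FPKM of 26.5, 25.9 and 23.2 in Ctrl, against 36.3, 34.5 and 36 in cKO. The groups did not overlap, and here Ctrl replicate 1 lay close to the other Ctrl samples. The means were 25.2 ± 1.78 and 35.6 ± 0.929 (SD, n = 3 each), a ratio of 1.41 and a log2 difference of 0.48 (standard error 0.0813). Of the 10 genes it had the smallest unadjusted p, 0.000753 (limma, adjusted p = 0.308), at rank 50 of all genes. The overlapping gene *Gm45808* shares 12.2% of the exonic bases of *Bax* on the same strand, so that reads could be divided between them.

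*Bbc3* (ENSMUSG00000002083, chromosome 7, 16308393 to 16318205) encodes PUMA, which frees BAX and BAK from the BCL-2 proteins that restrain them. Its FPKM was 7.45, 5.78 and 8.43 in Ctrl and 9.17, 8.02 and 9.61 in cKO. The groups overlapped, since Ctrl replicate 3 was above cKO replicate 2. The log2 difference was 0.28 with a 95% interval from -0.06 to 0.63 (unadjusted p = 0.0925, adjusted p = 0.721, limma), and it moved to 0.15 without Ctrl replicate 2 (unadjusted p = 0.263, limma). Leaving out 1 sample at a time gave an unadjusted p of 0.0338 without Ctrl replicate 3 and of 0.0814 to 0.263 in the other 5 fits (limma). A difference as large as that of *Cdkn1a* lies outside this interval.

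*Phlda3* (ENSMUSG00000041801, chromosome 1, 135766119 to 135769136) encodes a small pleckstrin homology domain protein that competes with AKT for membrane lipids, and it is known as a brake on the growth of islet endocrine cells. Its FPKM was 9.74, 2.04 and 1.70 in Ctrl and 18.8, 16.7 and 16.9 in cKO. The cKO samples lay close together, and all were above Ctrl replicate 1 by a factor of at least 1.72. The means were 4.49 ± 4.55 and 17.5 ± 1.16 (SD, n = 3 each), a ratio of 3.90. The log2 difference of 2.05 (standard error 0.508, unadjusted p = 0.00574, adjusted p = 0.464, limma) was the largest of the 10 genes on the log2(FPKM + 1) scale, at rank 17 of all genes tested. *Eda2r*, described next, had the larger ratio of means and the larger difference when the reads were fitted with voom.

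*Eda2r* (ENSMUSG00000034457, chromosome X, 97333840 to 97377216) encodes a receptor of the tumour necrosis factor receptor family, which binds ectodysplasin A2. It was the lowest of the 10 genes, with an FPKM of 0.662, 0.0647 and 0.122 in Ctrl, against 1.47, 0.947 and 1.90 in cKO. Only 68, 6 and 12 reads in Ctrl and 152, 97 and 202 reads in cKO stood behind these values, which again did not overlap. The means were 0.283 ± 0.329 and 1.44 ± 0.475 (SD, n = 3 each), a ratio of 5.08. The log2 difference of 0.94 (standard error 0.228, unadjusted p = 0.00532, adjusted p = 0.454, limma) understates this ratio, because 1 was added to FPKM before the logarithm was taken. It was 3.01 when the reads were fitted with voom and their plain totals, as planned. With median-of-ratios library sizes, a voom fit added after seeing the data, it was 2.90. *Eda2r* was at 0.122 in Ctrl replicate 3 and 0.947 in cKO replicate 2, the samples in which the Y-linked genes were at 0. Its highest value, 1.90, was in cKO replicate 3, where *Xist* was at 0.139. The part of sex in these values was not tested.

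*Zmat3* and *Trp53inp1* make up the rest. *Zmat3* (ENSMUSG00000027663, chromosome 3, 32334792 to 32366014) encodes a zinc finger protein that binds RNA and acts on splicing. Its FPKM was 3.10, 2.32 and 2.34 in Ctrl and 5.10, 4.28 and 3.53 in cKO, without overlap, a ratio of 1.66 and a log2 difference of 0.56 (standard error 0.153, unadjusted p = 0.00924, adjusted p = 0.504, limma). *Trp53inp1* (ENSMUSG00000028211, chromosome 4, 11156431 to 11174379) encodes a stress protein of the nucleus and of autophagosomes. Its FPKM was 11.1, 5.55 and 8.87 in Ctrl and 10.5, 8.92 and 11.6 in cKO, and the groups overlapped because Ctrl replicate 1 was above 2 of the 3 cKO samples. The log2 difference was 0.29 with a 95% interval from -0.26 to 0.85 (unadjusted p = 0.244, adjusted p = 0.820, limma). It was 0.05 without Ctrl replicate 2 (unadjusted p = 0.761, limma) and 0.49 without Ctrl replicate 1 (unadjusted p = 0.0547, limma).

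The order of the levels, which FPKM allows since it is scaled by gene length, differed between the genotypes in the middle of the list. In Ctrl islets it ran *Ccng1*, *Bax*, *Cdkn1a*, *Mdm2*, *Trp53inp1*, *Bbc3*, *Trp53*, *Phlda3*, *Zmat3* and *Eda2r*, and neighbours overlapped in their samples except *Zmat3* and *Eda2r*. In cKO islets *Cdkn1a* stood at rank 2, with a mean of 43.5, above *Bax* at 35.6, and *Phlda3* moved from rank 8 to rank 4. There, only *Cdkn1a* with *Bax* and *Trp53inp1* with *Bbc3* overlapped as neighbours.

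Across these genes, 1 Ctrl library differed from the other two. Ctrl replicate 1 was the highest of the Ctrl samples for 9 of the 10 genes, all but *Bbc3*. For 7 of the 10 it lay above both other Ctrl samples and below every cKO sample. Such a position requires every cKO sample above every Ctrl sample, so it was possible only in the 7 genes without overlap. Among all genes, 1508 had every cKO sample above every Ctrl sample. In 637 of these (3.0% of all genes) Ctrl replicate 1 was the highest Ctrl sample. For *Bax* its value was 26.5, against 25.9 in Ctrl replicate 2. Ctrl replicate 1 also had the lowest *Parn* FPKM of the Ctrl samples, 6.64, which was still above the cKO samples. The part of the leukocyte RNA in these values was not tested. Without Ctrl replicate 1, all 10 genes were again higher in cKO, with a median log2 difference of 0.59 against 0.00 over all genes. *Phlda3* then differed by 2.69 (adjusted p = 0.0101, limma), *Ccng1* by 1.56 (adjusted p = 0.0439, limma) and *Cdkn1a* by 2.49 (adjusted p = 0.0498, limma). Of the 20965 genes tested in that fit, 10 (0.0477%) were higher at an adjusted p under 0.05, and these 3 were among them. The fit has 2 Ctrl samples, it leaves out a library for reasons seen in the data, and the adjusted p of the last gene is close to the threshold.

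**Figure D2:**
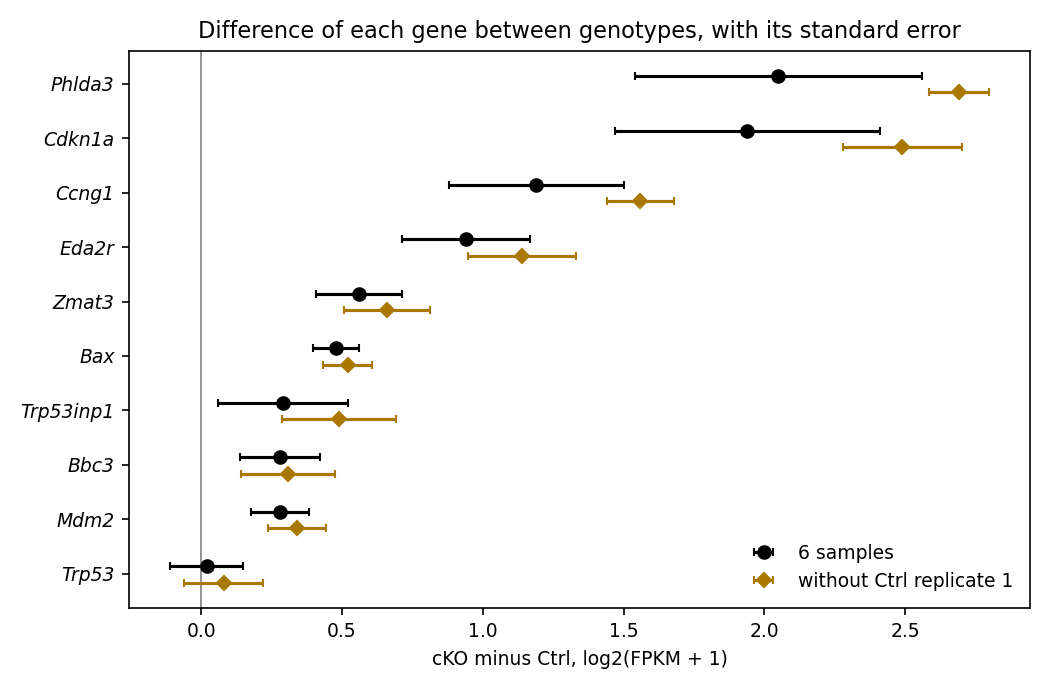
Difference between cKO and Ctrl in log2(FPKM + 1) (horizontal axis) for *Trp53* and 9 target genes; circles use 6 samples, diamonds leave out Ctrl replicate 1, and bars are standard errors from limma. Without that sample the differences of *Phlda3*, *Cdkn1a* and *Ccng1* are larger, at 2.69, 2.49 and 1.56, and their standard errors smaller, whereas *Bax* moves from 0.48 to 0.52 only.

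The islets hold other cells, and in bulk RNA a change in the number of cells of a type cannot be told apart from a change of RNA per cell. All 6 stromal markers were higher in cKO, 2 of them (*Col3a1* and *Lum*) at an unadjusted p under 0.05, and their summed FPKM was 7.96 to 15.9 in Ctrl and 13.3 to 39.7 in cKO. All 9 acinar markers were higher, 0 of them at that level, with sums of 7440 to 20157 in Ctrl and 9208 to 33464 in cKO. Of 6 endothelial markers 5 were higher, *Plvap* and *Cdh5* at that level, and 1, *Esm1*, was lower (log2 difference -0.26). Their sums were 122 to 141 in Ctrl and 142 to 174 in cKO. None of these 21 markers was listed at 0 in any sample. The stromal sum of cKO replicate 1, 13.3, was within the range of Ctrl, as was the acinar sum of cKO replicate 2, 9208. The part of these cells in the levels of the p53 pathway genes was not tested. Of 8 β cell markers 7 were lower, 1 of them, *Ucn3*, at that level, and the sum was 234546 to 274956 in Ctrl and 193706 to 215896 in cKO. That sum is mostly *Ins1*, *Ins2* and *Iapp*. Their log2 differences were -0.04, -0.46 and -0.54, with standard errors of 1.76, 2.87 and 0.719 in limma. With such errors the test could not call differences of this size, so the count of markers passing does not describe them. *Ins2* (means 168000 and 122000) and *Iapp* (20600 and 14000) had every cKO sample below every Ctrl sample, as did 6.03% of all genes. *Ins1*, *Mafa*, *Slc2a2*, *Nkx6-1*, *Pdx1* and *Ucn3* overlapped between the groups. Of 3 δ and PP cell markers 0 passed an unadjusted p under 0.05, where 4.33% of all genes were higher and 3.07% lower. Of 6 duct markers, *Cftr* was higher and *Krt7* lower. Of 7 leukocyte markers 6 were lower, *Cd79a* at that level. Without Ctrl replicate 1, 5 of the 6 leukocyte markers tested were higher in cKO, *Adgre1* and *C1qa* at that level, *Cd79a* was lower, and the median was 0.46. The leukocyte sums were then 98.3 and 87.1 in Ctrl and 128 to 166 in cKO, without overlap, in the fit in which *Phlda3*, *Ccng1* and *Cdkn1a* passed the adjusted threshold. The 11 immediate early and heat shock genes that mark the stress of islet isolation had sums of 911 to 1207 in Ctrl and 883 to 1288 in cKO, and 0 of them passed.

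**Figure D3:**
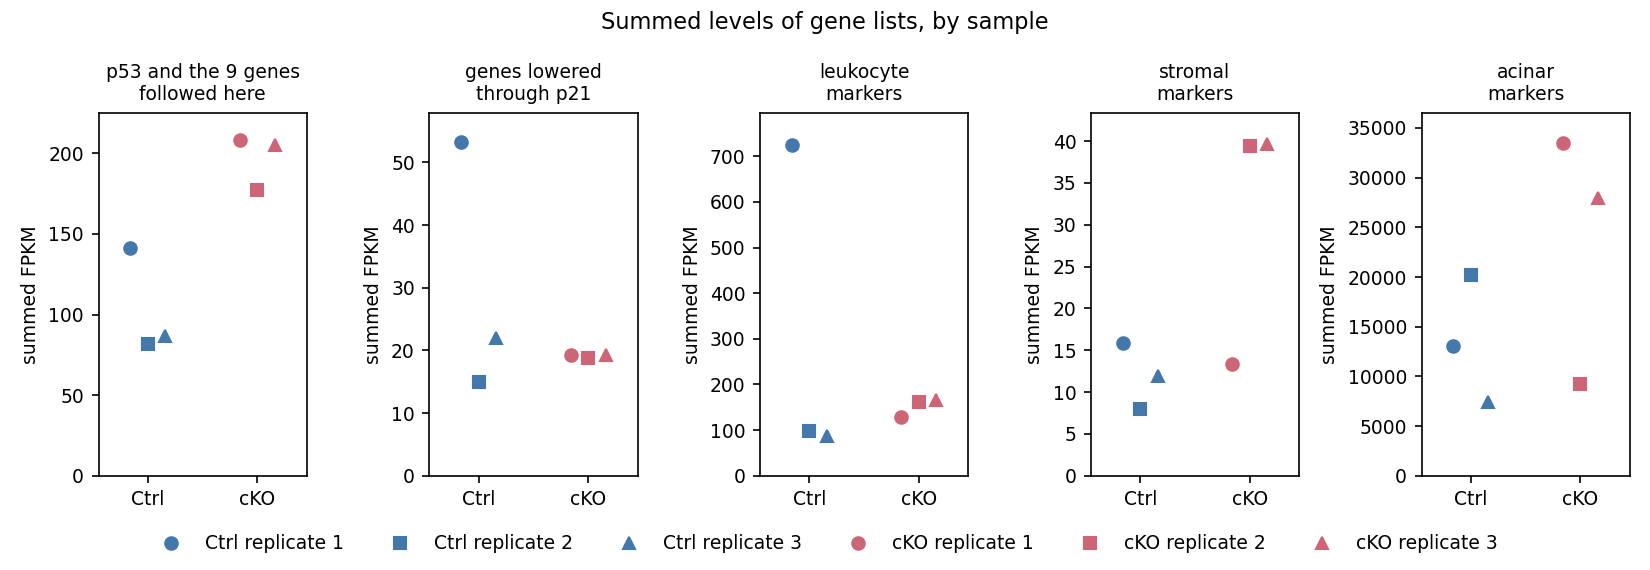
Summed FPKM (vertical axes, each from 0) of 5 gene lists in each sample. The sums of the 10 p53 pathway genes, 177 to 208 in cKO, lie above those of Ctrl, 81.9 to 141, whereas the sums of genes lowered through p21 and of leukocyte markers set Ctrl replicate 1 apart from the 5 other samples, and the stromal and acinar sums overlap between the groups.

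The wider p53 programme was described with 41 further targets, chosen for their known role, with earlier results of these data known. Of these, 27 were higher and 14 lower in cKO islets, with a median log2 difference of 0.08. At an unadjusted p under 0.05, 7 were higher and 1 was lower, against 4.33% and 3.07% of all genes, and 33 did not pass. Every cKO sample was above every Ctrl sample in 9 of the 41 and below in 3, against 7.11% and 6.03% of all genes. The 3 largest rises among the 7 genes higher at that p were those of *Aen*, *Dcxr* and *Psrc1*. *Aen*, a nuclease of apoptotic cells, was at 6.33, 3.45 and 2.95 in Ctrl and 8.13, 8.40 and 7.90 in cKO, a log2 difference of 0.86 (adjusted p = 0.488, limma). *Dcxr*, a reductase of dicarbonyls and xylulose, was at 7.26, 6.39 and 4.41 in Ctrl and 11.4, 10.9 and 12 in cKO, a difference of 0.84 (adjusted p = 0.379, limma). *Psrc1*, a microtubule-binding protein, was at 0.630, 0.265 and 0.232 in Ctrl and 1.22, 0.786 and 1.07 in cKO, a difference of 0.56 (adjusted p = 0.511, limma). All 3 were without overlap, and Ctrl replicate 1 was the highest Ctrl sample in each. Of the 9 targets with every cKO sample above every Ctrl sample, 5 had Ctrl replicate 1 as the highest Ctrl sample. Among all genes this was so in 637 of 1508. The lower gene was *Plk3*, a stress-responsive kinase, at 12.3, 14.2 and 19.5 in Ctrl and 11.6, 7.73 and 9.02 in cKO, a difference of -0.64 (adjusted p = 0.549, limma). Without Ctrl replicate 1, 30 of the 41 were higher, 8 of them at an unadjusted p under 0.05, and 1 was lower at that level. Of the 20965 genes tested in that fit, 10364 were higher, 1231 of them at that level, and 1142 were lower at that level. The number of the 41 targets lower at that level was 3 without Ctrl replicate 2 and 0 without cKO replicate 2.

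**Figure D4:**
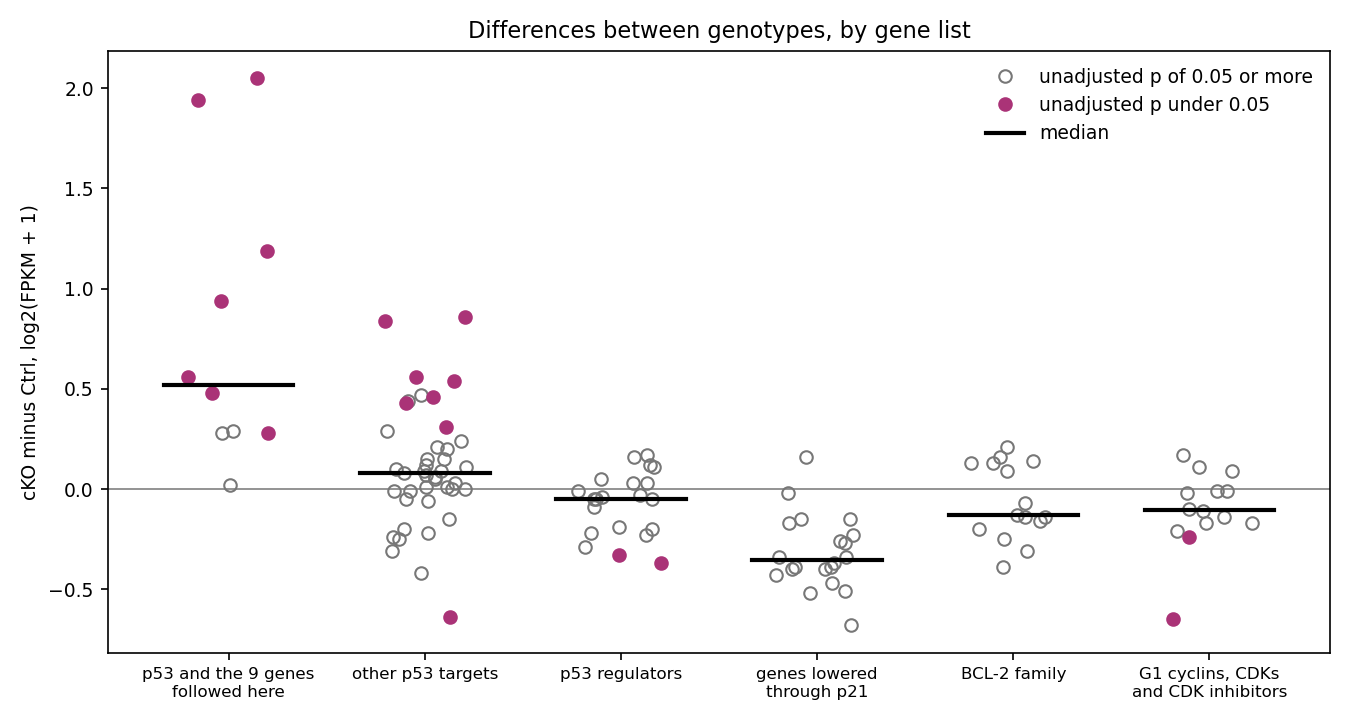
Difference between cKO and Ctrl in log2(FPKM + 1) (vertical axis) for each tested gene of 6 lists; filled circles have an unadjusted p under 0.05 in limma's test, and bars are medians. The 10 p53 pathway genes have a median of 0.52, the 41 other targets lie around a median of 0.08 with 7 filled circles above 0 and 1 below, and the 20 genes lowered through p21 lie around -0.35 with no filled circle.

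Genes whose products act on p53 were described next. Of 23 regulators, among them the kinases *Atm* and *Chek2*, *Mdm4* and the deubiquitinase *Usp7*, 21 could be tested. Of these 7 were higher and 14 lower, with a median of -0.05. At an unadjusted p under 0.05, where 4.33% of all genes were higher and 3.07% lower, 0 of them were higher and 2 lower. Those were *Rpl5* and *Rpl23*, ribosomal proteins that bind MDM2 when they are free of ribosomes. *Rpl5* was at 101, 99.8 and 83.5 in Ctrl and 67.3, 80.2 and 72.1 in cKO, a log2 difference of -0.37 (adjusted p = 0.546, limma). *Rpl23* was at 118, 125 and 101 in Ctrl and 87.0, 99.0 and 87.3 in cKO, a difference of -0.33 (adjusted p = 0.597, limma).

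Genes that p21 is known to lower by way of the DREAM complex, such as *Mki67*, *Top2a* and *Ccnb1*, were examined beside *Cdkn1a*. Of 20 genes, 19 were lower and 1 was higher in cKO islets with a median of -0.35, and 0 passed an unadjusted p under 0.05 in either direction. Their summed FPKM was 53.2 in Ctrl replicate 1, 15.0 and 22 in the other Ctrl samples and 18.8 to 19.3 in cKO. The lower mean thus rested on Ctrl replicate 1. Without it 9 genes were higher and 11 lower, with a median of -0.03.

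The BCL-2 family beside *Bax* and *Bbc3* holds the guardians and the other killers of the mitochondrial pathway. Of 15 tested genes, 6 were higher and 9 lower, 0 passed an unadjusted p under 0.05, and the median was -0.13, or 0.03 without Ctrl replicate 1. Among 14 G1 cyclins, their kinases and CDK inhibitors other than *Cdkn1a*, 3 were higher and 11 lower, with a median of -0.11. The 2 that passed, *Cdkn2c* and *Cdkn2d*, were lower, as were 3.07% of all genes at that level. *Cdkn2c*, which encodes the inhibitor p18 of CDK4 and CDK6, was at 5.40, 4.90 and 5.33 in Ctrl and 2.69, 2.55 and 3.75 in cKO, a log2 difference of -0.65 (adjusted p = 0.392, limma). *Cdkn2d*, which encodes the related p19, was at 12.5, 12.6 and 10.7 in Ctrl and 9.22, 10 and 10.5 in cKO, a difference of -0.24 (adjusted p = 0.666, limma). Both were without overlap, in the direction opposite to *Cdkn1a*. Every cKO sample was below every Ctrl sample in 4 of the 14 and above in 0, against 6.03% and 7.11% of all genes. Without Ctrl replicate 1 only *Cdkn2c* of this list had an unadjusted p under 0.05.

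The likeness of other genes to *Cdkn1a* and to *Trp53* was described by Pearson's r of log2(FPKM + 1) over the 6 samples, among genes whose mean FPKM reached 1 and whose SD was at or above the median of such genes. With 6 samples of 2 genotypes such values are descriptions only. The 3 genes most like *Cdkn1a* among 6681 were *Chst11* (r = 0.995), *Itga6* (r = 0.993) and *Slc33a1* (r = 0.992). Among the genes followed here, *Ccng1* stood at rank 10 (r = 0.982) and *Phlda3* at rank 15 (r = 0.977), and 45 genes had an r of 0.95 or more. *Mdm2* stood at rank 120, *Zmat3* at 187, *Bax* at 220, *Trp53inp1* at 376 and *Bbc3* at 532 (r = 0.765). *Eda2r* (r = 0.966) was too low in FPKM to be ranked. The 3 most like *Trp53* among 6682 were *Gm10320* (r = 0.988), *1700001G17Rik* (r = 0.979) and *Hist1h4n* (r = 0.971). Between *Trp53* and *Cdkn1a* themselves r was 0.213.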

How the data were processed

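Total RNA of isolated islets was extracted with TRIzol, and libraries were made with a SMARTER mRNA kit. The authors deposited FPKM per gene and sample on GRCm38 (mm10), and they compared genotypes with DESeq2. The aligner, the counting tool and its strand setting are not given in the sources used here. Whole reads were read back from FPKM for 100% of the values (tolerance 0.1 read). The library sizes behind the deposited FPKM equalled median-of-ratios factors multiplied by the geometric mean of the read totals, so that the values are already scaled for composition.

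log2(FPKM + 1) was compared with limma 3.58.1 in R 4.3.3 (moderated two-sided test with a trended prior, p-values adjusted by Benjamini-Hochberg) over genes whose mean FPKM reached 0.1, and the code was tested on simulated data. The 10 genes and all lists were chosen with earlier results of these data known. The text names the 10 genes, *Parn*, and of each list the genes with an unadjusted p under 0.05 (the 3 largest rises and falls where more than 6 passed), and the 3 genes most like *Cdkn1a* and *Trp53*. One list of markers is not reported here. In all, 16 alternatives were planned and 2 were added after seeing the data. Sequences come from RefSeq, gene models from GENCODE M21, and figures from Python 3.11.15 with matplotlib 3.10.9.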

Additional observations from a re-analysis of the deposited data

How the results depend on the processing

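The differences of all 10 genes but *Trp53* kept their direction in each alternative in which they were tested. *Cdkn1a*, *Ccng1*, *Phlda3*, *Bax* and *Zmat3* kept an unadjusted p under 0.05 in 18 of 18, *Eda2r* in 17 of 17 (it is not tested at a mean FPKM of at least 1), *Mdm2* in 14, *Bbc3* in 5 and *Trp53inp1* in 1 of 18. The log2 difference of *Trp53* was -0.01 with sample weights and -0.06 to 0.12 when 1 sample was left out. Voom on the reads with their plain totals gave 2 genes at an adjusted p under 0.05, 1499 higher and 328 lower genes at an unadjusted p under 0.05 (82.0% of those called were higher, against 58.5% in the comparison reported), and 11 other p53 targets higher. Scaling to the total reads on genes, added after seeing the data, gave 1404 higher and 378 lower genes (78.8% higher), and voom with median-of-ratios library sizes, also added, 977 and 602. Sample weights gave 1267 higher and 1245 lower genes (50.4% higher). Leaving out 1 sample gave 0 to 14 genes and 0 to 3 of the 10 p53 pathway genes at an adjusted p under 0.05, with 401 to 1142 lower genes (47.9% of those called were higher without Ctrl replicate 3, 51.9% without Ctrl replicate 1); the highest values were without Ctrl replicate 1, and without cKO replicate 3 there were 401 lower genes. Median-of-ratios scaling changed no value, because the deposited values carry it. The replicate numbers do not pair the samples (correlations of deviations -0.171, -0.0219 and -0.0652), and a replicate block gave 0 genes at an adjusted p under 0.05, 737 higher and 538 lower genes, and 8 of the 10 p53 pathway genes higher at an unadjusted p under 0.05, *Bbc3* being the gene added.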

Other observations

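*Trp53cor1*, a long non-coding RNA that p53 is known to induce (lincRNA-p21), lies 11796 bases from *Cdkn1a* on the opposite strand of chromosome 17 (29057430 to 29079179). It was chosen after its values were seen. Its FPKM was 0.338, 0.443 and 0.548 in Ctrl and 0.778, 0.909 and 0.933 in cKO, from 22 to 34 reads in Ctrl and 51 to 63 reads in cKO. The groups did not overlap, and the log2 difference was 0.38 (standard error 0.111, unadjusted p = 0.0129, adjusted p = 0.545, limma). Ctrl replicate 1, which held the highest Ctrl value of *Cdkn1a*, held the lowest Ctrl value of *Trp53cor1*.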
